A study of Caenorhabditis elegans with 2 samples.

Results

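Of the 2155 regions called on both replicates pooled in a ChIP-seq experiment on UNC-62 of the nematode Caenorhabditis elegans, 1649 lay on the 5 autosomes, and 362 of these were intronic and away from promoters. A region was counted here when its summit, the position of strongest signal, fell inside a protein-coding gene and in no exon of a protein-coding transcript. It also had to lie outside the window from 1000 bp upstream to 200 bp downstream of every protein-coding transcript start. Positions were on build ce11, the WBcel235 assembly, with genes from Ensembl release 115. These 362 regions made up 22.0% of the autosomal regions (exact binomial 95% interval 19.98 to 24.0%). The other 1287 autosomal regions comprised 601 in promoter windows, 301 in exons and 385 that were intergenic or in non-coding genes.

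The chromatin came from whole animals of strain OP600, which carries the unc119(ed3) allele and the transgene wgIs600, made of unc-62::TY1 EGFP FLAG and a rescuing copy of unc119, with males and females pooled. The strain is a transgenic line in which UNC-62 carries a GFP and FLAG tag at its C-terminal end. The antibody is labelled unc-62. The stage is dauer, the arrested larval form, in some label fields and D4 worms in another, and these entries conflict. There were 2 biological replicates in a single group. Every animal carried the transgene, and no untagged strain, second stage or input chromatin was analysed here, so all values below compare regions within this strain.

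UNC-62 is the C. elegans protein of the Meis class of TALE homeodomain factors, which bind DNA together with Hox and Pbx-class proteins. Such factors act at promoters and also at enhancers, and in C. elegans long introns can hold enhancers or start sites of shorter transcripts of the same gene. Most introns of this compact genome are short.

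The 201 bp around the summits of 7 of the strongest of these regions are printed first, as examples of the reproducible members. Of these windows 4 hold the GA repeat, and those of Y62E10A.13, mnk-1 and the middle pqn-41 region do not. All 7 were in the list that the submitters labelled as optimal after irreproducible discovery rate (IDR) thresholding, called reproducible here. The reproducible regions of let-526 and ppfr-1 are not printed and all hold the GA repeat, so 7 of the 10 reproducible windows hold it. Sequences are from the RefSeq copy of WBcel235, written 5′ to 3′ on the plus strand. Capitals mark GAGAGA or its reverse complement TCTCTC, and TGACAG or its reverse complement CTGTCA.
Y111B2A.12, chrIII:12612681-12612881, plus strand: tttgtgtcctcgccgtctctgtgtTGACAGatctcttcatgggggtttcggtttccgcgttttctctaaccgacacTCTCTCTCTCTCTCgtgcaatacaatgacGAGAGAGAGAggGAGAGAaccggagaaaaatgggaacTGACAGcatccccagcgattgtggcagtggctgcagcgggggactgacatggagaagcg
pqn-41, chrIII:1925330-1925530, plus strand: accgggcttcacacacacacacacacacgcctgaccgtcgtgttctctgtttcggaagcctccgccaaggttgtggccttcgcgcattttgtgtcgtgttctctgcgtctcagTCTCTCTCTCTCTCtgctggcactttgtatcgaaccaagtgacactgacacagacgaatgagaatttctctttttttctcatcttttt
Y62E10A.13, chrIV:13395119-13395319, plus strand: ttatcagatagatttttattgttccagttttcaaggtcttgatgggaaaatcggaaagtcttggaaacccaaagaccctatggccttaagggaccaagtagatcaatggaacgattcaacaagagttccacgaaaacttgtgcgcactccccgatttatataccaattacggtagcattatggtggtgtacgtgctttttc
pqn-41, chrIII:1923668-1923868, plus strand: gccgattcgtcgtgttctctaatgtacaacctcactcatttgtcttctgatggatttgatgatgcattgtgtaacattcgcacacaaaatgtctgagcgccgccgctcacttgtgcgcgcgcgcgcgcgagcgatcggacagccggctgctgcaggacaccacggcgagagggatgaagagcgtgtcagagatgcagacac
daf-5, chrII:14040214-14040414, plus strand: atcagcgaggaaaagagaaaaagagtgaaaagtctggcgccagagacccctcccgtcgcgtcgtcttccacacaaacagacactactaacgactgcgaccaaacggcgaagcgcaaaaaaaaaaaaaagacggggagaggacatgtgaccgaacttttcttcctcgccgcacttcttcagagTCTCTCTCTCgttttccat
mnk-1, chrII:10551938-10552138, plus strand: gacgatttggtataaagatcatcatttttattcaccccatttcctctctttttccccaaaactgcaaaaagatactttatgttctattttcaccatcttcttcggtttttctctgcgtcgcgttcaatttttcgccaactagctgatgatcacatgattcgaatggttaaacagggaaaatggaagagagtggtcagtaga
pqn-41, chrIII:1921319-1921519, plus strand: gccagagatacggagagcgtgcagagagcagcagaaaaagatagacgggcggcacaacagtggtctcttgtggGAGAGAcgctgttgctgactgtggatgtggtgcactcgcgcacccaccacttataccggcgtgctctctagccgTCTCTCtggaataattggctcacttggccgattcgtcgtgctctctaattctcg

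The window in Y111B2A.12 held 9 overlapping or separate matches to the GA repeat on either strand and 2 matches to TGACAG, a core sequence bound by Meis-class proteins. The 3 others on chromosome III came from the same intron of pqn-41, which encodes a glutamine and asparagine rich protein. The upstream pair of those windows shared a run of 14 bases, gccgattcgtcgtg, and the downstream pair shared a run of 13 bases, cgtcgtgttctct. The 14-base run occurred in no other member, in none of the other autosomal regions and in 2 of 73504 windows of equal width tiled over eligible intron. The 13-base run occurred in no other member, in none of the other autosomal regions and in 5 of those windows. The tiled windows include the pqn-41 intron itself. These runs were found by comparing the windows after their signals were known.

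Intronic regions had the same median pooled signal as the rest of the autosomal list. Signal is the enrichment that the authors assigned to a region, on a scale that the labels do not state. The pooled signal of the 362 regions had a median of 17.6 (quartiles 16.4 and 19.7) and ran from 15.5 to 53.2. The other 1287 autosomal regions also had a median of 17.6 and ran from 15.5 to 82.4. By class the median was 18.0 in promoter windows, 17.0 in exons and 17.6 in intergenic or non-coding sequence. A signal of 20 or more was reached by 81 intronic regions (22.4%) and by 303 of the others (23.5%). At the upper end the intronic regions supplied 31 of the 164 autosomal regions in the highest 10% (18.9%).

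Few of the 362 regions were in the reproducible list. It held 10 of them, 2.76% (exact binomial 95% interval 1.33 to 5.02%), beside 3.15% of all autosomal regions. The share was 4.83% in promoter windows (29 regions), 1.33% in exons (4 regions) and 2.34% in intergenic or non-coding sequence (9 regions). The interval of the intronic share covered each of these values except the exonic share, which lay at its lower edge. These 10 were also the 10 intronic regions of highest pooled signal, from 31.6 upward, with the next at 30.02. Among intronic regions the list thus cannot be told apart from a cut on pooled signal. All 10 carried the highest −log10 q value of the pooled list, 0.820, which is a q value of 0.151.

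The 10 reproducible regions lay in 7 host genes. Y111B2A.12 held the strongest, at chrIII:12612609-12612952 in its intron 4, with a pooled signal of 53.2. Its matched region had a signal of 30.7 in replicate 1 and 20.6 in replicate 2, ranks 28 and 36 of 30000. The region in intron 1 of let-526, which encodes an ARID-domain subunit of the SWI/SNF chromatin remodelling complex, had a pooled signal of 47.6. Here the replicates stood apart, with 36.3 in replicate 1 (rank 24) and 11.6 in replicate 2 (rank 683). Intron 1 of daf-5, a Ski-family transcription factor of the TGF-beta pathway of dauer formation, held a region of pooled signal 37.5. Its signal was 23.2 in replicate 1 (rank 44) and 10.3 in replicate 2 (rank 1351), again higher in replicate 1. The region in intron 3 of mnk-1, which encodes a kinase downstream of MAP kinases, went the other way. Its pooled signal was 36.4, with 13.9 in replicate 1 (rank 241) and 18.9 in replicate 2 (rank 55). The region in intron 2 of Y62E10A.13 had a pooled signal of 40.2, with 17.1 in replicate 1 (rank 111) and 20.8 in replicate 2 (rank 34).

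pqn-41 held 3 reproducible regions, all in its intron 15 of 7770 bp, within 4011 bp of each other. From upstream to downstream their pooled signals were 33.3, 39.4 and 42.3. In replicate 1 their matched signals were 20.5, 17.3 and 26.0, and in replicate 2 they were 10.8, 18.1 and 20.3. Each exceeded the intronic median in both replicate lists. Another pooled region of pqn-41 lay in a promoter window, 25 bp inside its edge, with a signal of 19.5. ppfr-1, which encodes a regulatory subunit of protein phosphatase 4, held the remaining 2. The region at 31.6 in the pool had 16.0 in replicate 1 (rank 137) and 8.87 in replicate 2 (rank 2822), and 74.7% of its 32-base words occurred once in the genome. The region at 43.6 in the pool had matched signals of only 7.50 in replicate 1 (rank 5250) and 5.77 in replicate 2 (rank 14229), although all its 32-base words were unique. These are the signals of the nearest summit within 200 bp in each list, whatever its strength, and both were below the intronic median. Whether a stronger region overlapped it in either list was not examined for this region.

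**Figure D1:**
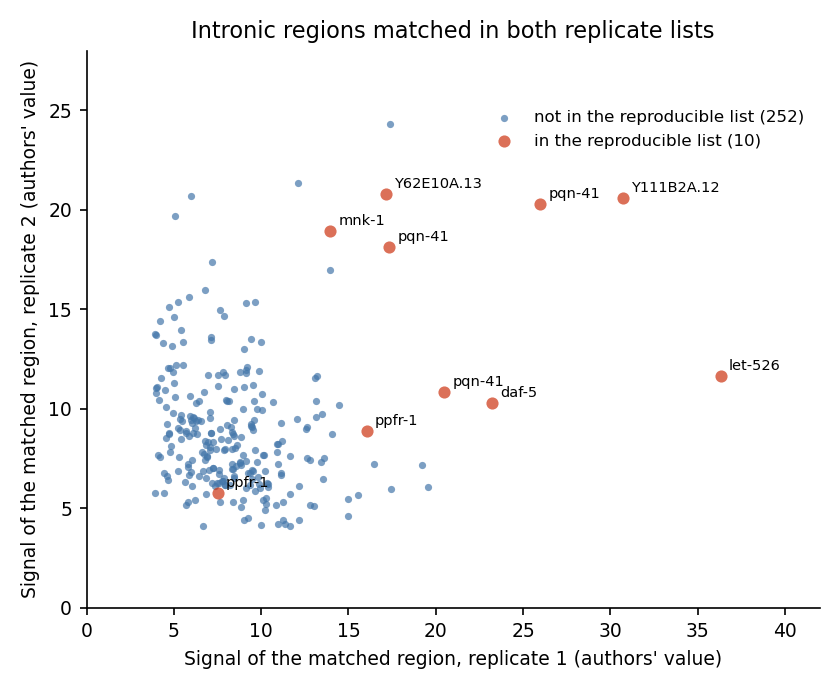
Signal of the matched region in replicate 1 (x axis) against replicate 2 (y axis), both the authors' values, for the 262 intronic regions with a summit within 200 bp in both replicate lists. The 10 reproducible regions are in red with their host gene. The ppfr-1 region at 7.50 and 5.77, taken from the nearest summits, lies among the blue points. The other red points have replicate 1 signals of 13.9 or more.

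Most intronic regions, though not all, had a counterpart in both replicate lists. A match was the nearest summit within 200 bp, whatever its signal, and both lists held 30000 regions, background included. In replicate 1, 309 matched (85.4%), beside 87.6% of all autosomal regions, and in replicate 2, 314 matched (86.7%), beside 87.6%. Of the 362 regions, matches covered both lists for 262, replicate 1 alone for 47, replicate 2 alone for 52 and neither for 1. Over all 1649 autosomal regions these counts were 1243, 202, 202 and 2. Summits of the full lists lay within 200 bp of 10.7% of eligible intron sequence in replicate 1 and 10.2% in replicate 2. The matched signals were modest, with a median of 8.46 in replicate 1 (3.89 to 36.3, median rank 3147) and 8.77 in replicate 2 (4.12 to 24.3, median rank 2985).

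Restricting each replicate list to its first 1000 regions by signal left far fewer. In replicate 1, 84 intronic regions matched (23.2%), beside 24.6% of all autosomal regions. In replicate 2, 86 matched (23.8%), beside 25.8%. Both lists together held 11 (3.04%, exact binomial 95% interval 1.53 to 5.37%), beside 4.79% of all autosomal regions. The corresponding share was 7.32% in promoter windows (44 regions), 1.99% in exons (6 regions) and 4.68% in intergenic or non-coding sequence (18 regions). With the best-ranked overlapping region in place of the nearest summit, the intronic share was 4.14%. A total of 148 of the 362 intronic regions were among the first 1000 of a single replicate only and 203 of neither. Over all 1649 autosomal regions these counts were 673 and 897. Across the 262 regions matched in both lists Spearman's correlation coefficient between the replicate signals was −0.19, and it was −0.19 over 981 matched regions of the other autosomal classes. The coefficient between pooled and replicate signals was 0.44 for replicate 1 and 0.39 for replicate 2. The pooled list had been selected for high joint signal, which bounds the lower left of these comparisons, so the coefficients are descriptions of that list.

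Regions outside the reproducible list made up the rest of the strongest members. Of the 25 with the highest pooled signal, 10 were among the first 1000 of both replicates and 3 among the first 1000 of neither. mef-2, a MADS-box transcription factor, had a region in intron 1 at 30.02, with 14.0 in replicate 1 and 17.0 in replicate 2. The region in intron 1 of T28F4.1 was at 30.01, with 12.1 and 21.4. In W06H8.6 a region at 27.2 had 17.4 in replicate 1 and 24.3 in replicate 2, the highest replicate 2 signal of any intronic region, and was not in the reproducible list. Its summit lay in an exon of a non-coding gene, W06H8.16. egl-27, a homologue of the NuRD subunit MTA, had a region at 28.7 with only 7.93 in replicate 1 and 11.7 in replicate 2. zfp-1, the homologue of the leukaemia fusion partner AF10, had a region at 25.2 with 19.5 in replicate 1 and 6.08 in replicate 2. pkg-2, a cGMP-dependent protein kinase, had a region at 27.1 with 7.18 and 17.4. These regions differed between replicates in both directions. The others of the 25 lay in F23B12.4, cwf-19L2, dhc-4, pgph-2, gur-4, sms-1, fkh-7, saeg-1 and nhr-19, with pooled signals from 25.01 to 28.2. Of these, the dhc-4 region had 55.3% unique 32-base words and its summit lay in a small nuclear RNA gene, and the sms-1 region had no match in replicate 2.

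Several genes held more than 1 intronic region. The 362 regions fell in 308 host genes, 2.07% of the 14851 autosomal protein-coding genes with eligible intron sequence, and 4 regions had 2 hosts each. A single region was held by 264 genes, 2 by 34 genes, 3 by 7, 4 by 2 and 5 by 1. Host genes had a median of 4442 bp of eligible sequence, beside 648 bp over all eligible genes, so genes with more eligible sequence were those counted more often. ppfr-1 held 5 regions in 2 introns over 10051 bp, with pooled signals from 18.6 to 43.6. pde-4, a cAMP phosphodiesterase, held 4 with signals from 16.8 to 17.9, and sms-1, a sphingomyelin synthase, held 4 in a single intron of 8280 bp with signals from 16.4 to 25.4. The 7 genes with 3 regions each were F57A8.1, egl-27, fkh-7, let-526, let-607, pkg-2 and pqn-41. fkh-7 encodes a forkhead factor and let-607 a bZIP factor of the CREB3 type. The 3 fkh-7 regions lay in intron 1 of 16465 bp. let-607 had 3 regions in intron 1, at 18.1, 21.5 and 19.0, and the first of these matched neither replicate list. Neighbouring regions can overlap, as 10 of the 362 did with another, among them the first 2 of let-607, 2 of ppfr-1 and 2 of sms-1. Each is counted as a region of its own in the counts per gene and the densities. In these 10 genes together the density ran from 12.1 regions per 100 kb of eligible sequence in pqn-41 to 74.7 in egl-27, beside 1.57 over all eligible genes. The genes were picked for their counts, so these densities describe them only. pqn-41 had the lowest density of the 10 and the highest lower bound of signal, 33.3.

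**Figure D2:**
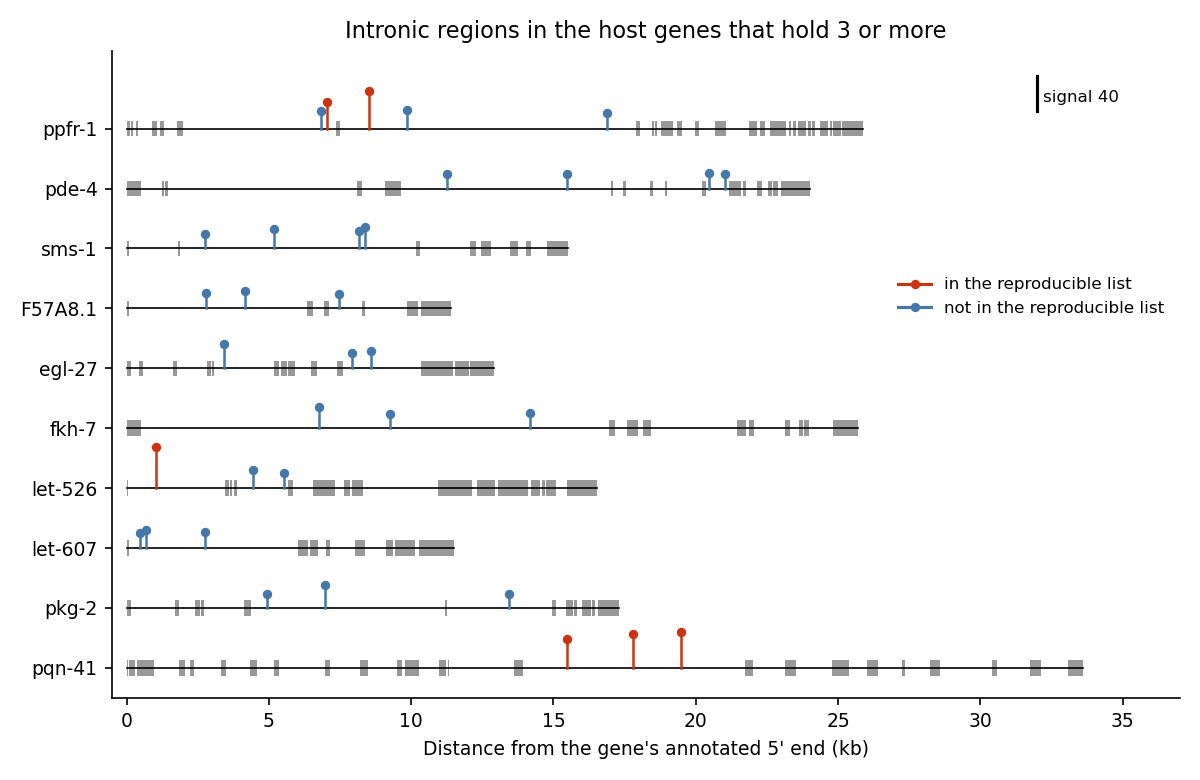
The 10 host genes with 3 or more intronic regions, drawn from the annotated 5′ end of the gene (x axis, kb), with exons as grey boxes. Each stalk is a summit and its height the pooled signal (scale bar 40); the 3 stalks of pqn-41 share an intron of 7770 bp, and those of sms-1 an intron of 8280 bp.

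Regulatory gene families were represented by a few hosts each. Among Hox and TALE homeobox genes, 2 of 8 eligible genes were hosts, beside 2.07% of all eligible genes. Their 2 regions in 22.1 kb of eligible sequence gave 9.04 per 100 kb, beside 1.57 over all eligible genes. This rests on 2 regions, and 1 of the 2 hosts was unc-62 itself. lin-39, a Hox gene of the mid-body, had a region in intron 3 at 21.7, with 13.6 in replicate 1 and 6.47 in replicate 2. unc-62 itself had 6 pooled regions, of which 3 were exonic, 2 in promoter windows and 1 intronic. The intronic region, at chrV:4500028-4500371, had a pooled signal of 19.6 and 14.4 in replicate 1 (rank 209), without a match in replicate 2, and its summit lay 12 bp past the promoter window. The other regions of unc-62 had pooled signals from 24.3 to 82.4. All animals carry a tagged unc-62 transgene, and whether its copies contribute to these values was not tested.

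Of 28 eligible genes of axon guidance and cell migration, 5 were hosts. They included mig-10, a lamellipodin-type adaptor, at 24.6, unc-73 at 21.6, the netrin receptor gene unc-5 at 17.1, and unc-14 at 15.8. The mig-10 region had 6.80 in replicate 1 and 16.0 in replicate 2, and the unc-73 region 4.74 and 15.1. In both of these genes the stronger value was in replicate 2. Of 37 eligible neuron and synapse genes, 4 were hosts, with 6 regions. These were the potassium channel gene unc-103 (highest 19.5), the synaptotagmin gene snt-1 (17.6), unc-13, which primes synaptic vesicles (15.9), and the neurexin gene nrx-1 (15.6). Among 19 eligible adhesion genes 2 were hosts, with 2 regions each. They were sax-7, the L1CAM homologue (highest 17.0), and casy-1, a calsyntenin (16.1). These lists hold long genes: the adhesion list had 2.14 regions per 100 kb of eligible sequence, the axon list 2.14 and the neuron list 3.45, beside 1.57 over all eligible genes.

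The remaining lists are given as counts, beside the 2.07% of all eligible genes that were hosts and the 1.57 regions per 100 kb over all of them. The dauer list had 2 hosts among 26 eligible genes, at 1.65 regions per 100 kb. They were daf-5, described above, and daf-2, the insulin and IGF receptor gene, with a region in intron 12 at 20.1 that had 16.5 in replicate 2 (rank 100) and no match in replicate 1. Among 39 eligible glutamine and asparagine rich genes 3 were hosts, at 3.94 per 100 kb, namely pqn-41, pqn-22 (21.3) and pqn-27 (15.5). The list of chromatin regulators had 2 hosts of 53, at 1.40 per 100 kb, zfp-1 and the methyltransferase gene lin-59 (17.4). It did not include let-526 or egl-27, described above, which held 3 regions each, so its rate leaves these 2 genes out. Nuclear receptors had 2 hosts of 242, at 0.702 per 100 kb, nhr-19 (25.01) and nhr-46 (16.2), and the wider homeobox list 1 of 45, at 1.33 per 100 kb, ceh-48 (16.7). Muscle genes had 2 hosts of 34, at 1.39 per 100 kb, pat-12 (19.3) and the calcium channel gene egl-19 (17.4). The pharynx list had 1 host of 9, the FoxA gene pha-4 (16.3), and RNA binding genes 1 of 16, the STAR-family gene asd-2 (17.4). No host was found among 95 collagen, 23 Wnt, 11 basement membrane, 9 intestine, 13 hypodermis, 22 germline, 8 heterochronic or 17 Ras and Notch genes. Several of these lists offered little eligible sequence, such as 39.8 kb in the collagens and 8.81 kb in the intestine list, so a count of 0 there is near the background. Others had more, with 128 kb in the Ras and Notch list, 82.1 kb in the basement membrane list and 62.9 kb in the Wnt list. No region was found there either, beside 1.57 per 100 kb over all eligible genes, and this was not tested. In all, 27 listed genes held 33 of the 362 regions.

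Intronic regions were concentrated in the centres of the chromosomes. The central 50% of chromosome length held 269 of 362 regions, 74.3% (exact binomial 95% interval 69.5 to 78.7%), and 41.8% of eligible intron sequence. Of the other autosomal regions, 69.1% lay there. Density was 28.4 intronic regions per Mb of eligible sequence in the centres and 7.05 per Mb in the arms. Each autosome showed the same order, with central shares of 71.1% on I, 74.1% on II, 65.4% on III, 75% on IV and 86.7% on V, while the central share of eligible sequence ran from 37.8 to 43.3%. Among intronic regions of the first 1000 of each replicate list taken alone, 77.0% (of 152) were central in replicate 1 and 73.8% (of 164) in replicate 2. The other autosomal regions among those first 1000 were central in 66.3% and 69.98% of cases. In the full lists of 30000 the central share of intronic regions was 53.7% and 55.1%, below the 60.0% and 61.2% of the other autosomal regions, so the order of these classes turned with the depth of the list. Of the 10 reproducible regions, also the strongest by pooled signal, 4 lay in the centres and 6 in the arms. The 6 include the 3 that share an intron of pqn-41, and the 4 include the 2 of ppfr-1. These counts are too few and too dependent for a comparison with the shares above. Repeat content moved with position: masked bases made up 44.1% of eligible sequence in the centres and 62.2% in the arms. Within 100 bp of the summits the mean masked share was 27.8% in intronic regions and 24.0% in the other autosomal regions, against 56.0% in the windows tiled over eligible intron. Those tiled windows held eligible bases only, whereas windows around summits could include exon or promoter bases. The part of repeat content in the distribution was not tested.

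Long introns held more of the regions than their share of sequence. Over the 360 regions with a defined intron the median intron length was 1740 bp, from 44 to 17091 bp, whereas the eligible bases lay in introns of median length 934 bp. Introns over 2000 bp held 169 regions, 46.9% (exact binomial 95% interval 41.7 to 52.2%), and 26.9% of eligible sequence. The same held apart for centres, at 47.4% of regions and 27.0% of sequence, and arms, at 45.7% and 26.9%. Intronic regions of the first 1000 of each replicate list lay in introns of median length 2674 bp in replicate 1 and 1747 bp in replicate 2, beside 858 and 805 bp in the full lists. First introns held 80 regions, 22.2% (18.0 to 26.9%), close to their 19.6% of eligible sequence. Summits lay a median of 1674 bp from the nearest protein-coding transcript start and 348 bp from the nearest exon. Per Mb, intronic regions were sparser, at 16.0 per Mb of eligible sequence, than promoter regions, at 26.9 per Mb of promoter window.

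**Figure D3:**
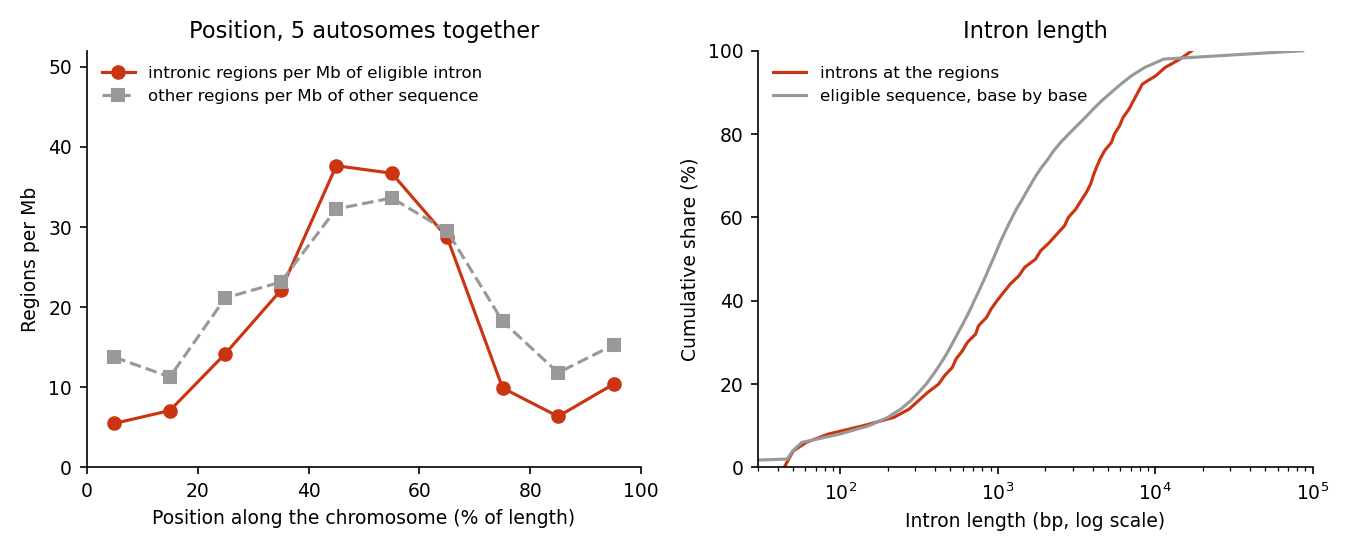
Left, intronic regions per Mb of eligible intron and other autosomal regions per Mb of other sequence, in bins of 10% of chromosome length with the 5 autosomes together; the intronic density rises from 5.49 at the left end to 37.6 just before the centre. Right, cumulative share (y axis) of intron length (x axis, log scale) for the introns at the regions and for eligible sequence counted base by base, with medians of 1740 and 934 bp.

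Some summits fell in non-coding genes inside the introns. In 18 of the 362 regions the summit was in an exon of a non-coding gene, in 12 cases of the class ncRNA, in 4 antisense RNA, in 2 snoRNA, in 2 tRNA and in 1 snRNA, with some summits in exons of more than 1 class. A non-coding start other than that of a piRNA or pseudogene lay within 200 bp of 36 summits. The matching shares of eligible intron and of the other autosomal regions were not computed. These counts therefore describe the members only and cannot show an excess. Among the reproducible regions, that of let-526 lay in the antisense gene F48C1.15 and the weaker of the ppfr-1 pair in the antisense gene anr-20.

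The windows around the summits were richer in G and C than windows tiled over eligible intron. Median GC content within 100 bp of the summit was 36.8% in the 362 regions, 35.6% in windows 1000 bp to either side and 32.3% in windows tiled over eligible intron. It was 37.8% in the other autosomal regions. Tiled windows held eligible bases only, whereas windows around summits could include exon or promoter bases. Of the intronic regions, 42 lay in introns of 200 bp or less, shorter than the window of 201 bp. The 181 intronic regions with the higher pooled signal had a median of 38.3% and the 181 with the lower signal 35.8%. The 10 reproducible regions, also the 10 strongest, had a median of 51.7% and ran from 37.8 to 56.2%. GC content of 50% or more was found in 27 regions (7.46%) and in 2.01% of the tiled windows. Those 27 included 5 of the 10 reproducible regions and had a median pooled signal of 20.9, beside 16.6 in the 45 regions below 30% GC. The part of GC content in the signal was not tested.

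**Figure D4:**
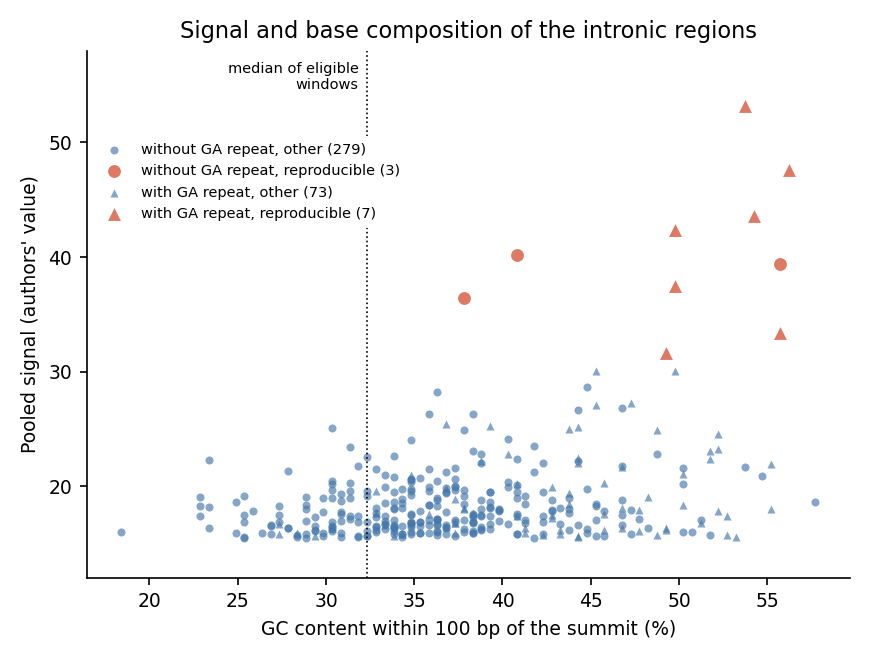
GC content within 100 bp of the summit (x axis, percent) against pooled signal (y axis, authors' value) for the 362 intronic regions. Triangles hold the GA repeat, red marks the 10 reproducible regions, and the dotted line is the median of eligible windows, 32.3%; 9 of the 10 red points lie above 40% GC.

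The GA repeat was the motif that stood out most from tiled intron windows, which held eligible bases only. Each motif was sought on both strands within 100 bp of the summit. GAGAGA was found in 80 of 362 regions, 22.1% (exact binomial 95% interval 17.9 to 26.7%), beside 23.6% of all autosomal regions. It was found in 15.2% of the windows 1000 bp away (12.7 to 18.0%) and in 8.13% of tiled eligible windows. By class the share was 26.1% in promoter windows, 30.6% in intergenic or non-coding regions and 11.3% in exonic regions. In regions with 40 to 50% GC it was 40.6%, beside 15.7% of tiled windows of that GC content, and at 50% GC or more it was 63.0% beside 17.5%. In regions of 30 to 40% GC the share was 10.3% beside 8.53%, and in the 45 regions below 30% GC it was 8.89% beside 4.01%. The repeat was present in 7 of the 10 reproducible regions, also the 10 strongest. Intronic regions among the first 1000 of each replicate list held it in 31.6% of cases in replicate 1 and 26.2% in replicate 2, beside 10.5% and 11.3% in the full lists. The other autosomal regions showed the same order, with 25.2% and 23.3% in the first 1000, beside 12.8% and 13.3% in the full lists. Its nearest copy lay a median of 40.5 bp from the summit. Relative to the host gene it ran in sense in 29 regions, in antisense in 44 and in both orientations in 7, so 39.7% of the 73 regions with a single orientation were sense (28.5 to 51.9%), beside 48.2% of the sites in introns that were eligible over their full length. The median pooled signal was 18.0 with the repeat and 17.5 without.

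TGACAG was less common and was found more often in the stronger than in the weaker intronic regions. It was found in 31 regions, 8.56% (exact binomial 95% interval 5.89 to 11.9%), beside 8.43% of all autosomal regions, 6.35% of windows 1000 bp away and 5.30% of tiled windows. In the stronger 50% of intronic regions it was in 24 of 181, 13.3% (8.68 to 19.1%), and in the weaker 50% in 7 of 181, 3.87% (1.57 to 7.81%). In the other autosomal regions the corresponding shares were 8.24% and 8.54%, and the difference between these classes was not tested. That pool joins classes of unlike values. The stronger and weaker 50% held the motif in 11.98% and 6.74% of intergenic or non-coding regions, 8.33% and 7.31% of promoter regions and 6% and 10.6% of exonic regions, so the order seen in introns was also that of the first 2 of these classes. GC content moved with the motif, which was in 4.44% of intronic regions below 30% GC, 7.22% at 30 to 40%, 12.5% at 40 to 50% and 11.1% above, beside 4.26, 5.76, 6.34 and 6.77% of tiled windows. In intronic regions of the first 1000 of each replicate list TGACAG was in 10.5% and 9.76%, beside 6.83% and 6.73% in the full lists. For the other autosomal regions these shares were 6.64% and 8.48%, beside 7.04% and 7.46%. Of the 10 reproducible regions 1 held it, that in Y111B2A.12.

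Over all 362 regions the shares of the other motifs were within 3 percentage points of those in tiled intron windows. TGATNNAT, a composite form bound by Hox and Pbx-class proteins, was in 56 regions (15.5%), beside 16.5% of all autosomal regions and 12.5% of tiled windows. The GATA core GATAA, which can fall inside TGATNNAT, was in 133 (36.7%), beside 38.5% and 33.8%. The E-box CACGTG was in 11 (3.04%), beside 4.31% and 2.65%. GCGCGA was in 13 (3.59%), beside 3.76% and 2.91%, and 5 of these 13 were reproducible regions, including all 3 of pqn-41. By signal, 5 of the 6 motifs were more frequent in the stronger than in the weaker 50% of intronic regions. The shares were 25.4% and 18.8% for GAGAGA, 18.8% and 12.2% for TGATNNAT, 5.52% and 1.66% for GCGCGA and 4.42% and 1.66% for CACGTG. The other way round was GATAA, at 34.3% and 39.2%. In the other autosomal regions GAGAGA, at 30.02% and 18.01%, and GCGCGA, at 4.20% and 3.42%, were also more frequent in the stronger 50%. There TGATNNAT, at 15.24% and 18.32%, CACGTG, at 4.35% and 4.97%, and GATAA, at 38.41% and 39.60%, were less frequent in the stronger 50%. Of the 6 motifs in intronic regions, TGACAG was the only 1 whose paired intervals did not overlap. In the other autosomal regions those of GAGAGA did not overlap. No allowance was made for comparing 6 motifs, and the intervals treat regions as independent. The differences by signal, and those between the classes, were not tested. A match describes letters in the window and shows no binding by a given factor.

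**Figure D5:**
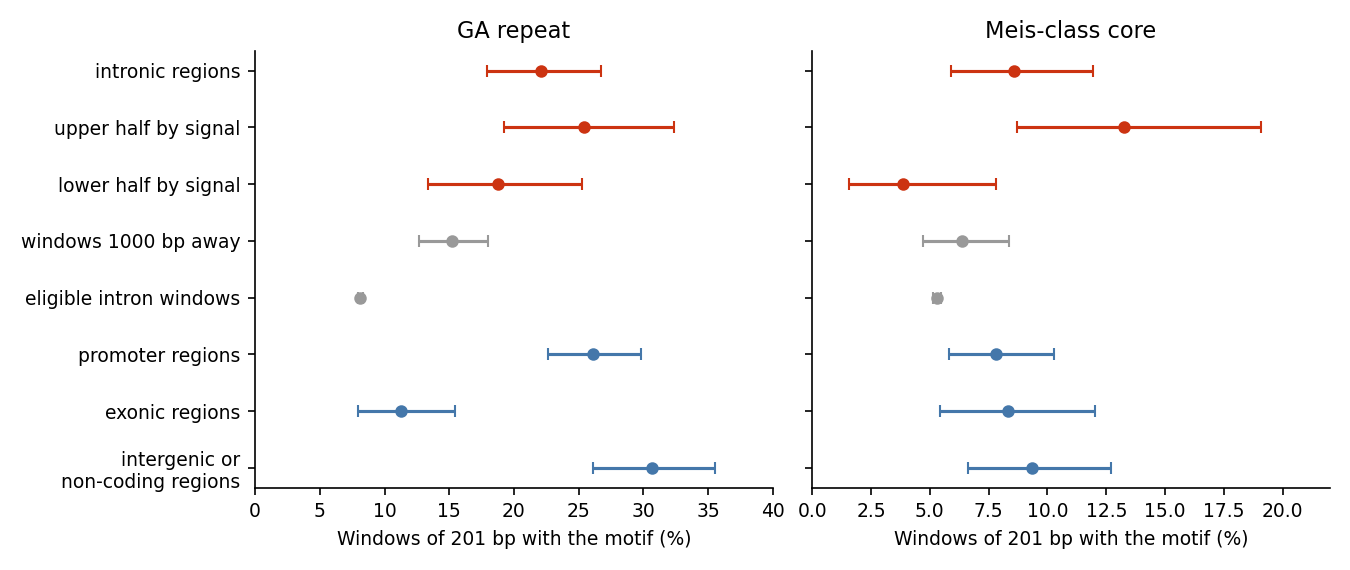
Share of 201 bp windows with the GA repeat (left) and with the Meis-class core (right), with exact binomial 95% intervals, for the intronic regions, their upper and lower 50% by pooled signal, windows 1000 bp away, eligible intron windows and the other autosomal classes. The GA repeat is at 22.1% in intronic regions and 8.13% in eligible windows, and the Meis-class core at 13.3% in the upper and 3.87% in the lower 50% by signal.

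The promoter window sets the edge of the class. The 5 intronic regions nearest to it lay 2 to 14 bp outside, in epg-9, T10B11.5, shw-1, unc-62 and F22G12.4, with pooled signals from 16.1 to 19.6. The 5 nearest on the inner side, at par-3, let-711, msa-1, pqn-41 and nlp-27, lay 0 to 26 bp within it and had signals from 16.2 to 19.5. Signals on both sides of the edge covered the same range.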

How the data were processed

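The deposited region lists on ce11 were used: 1 per replicate, 1 for both replicates pooled and 1 that passed the IDR threshold, called reproducible. Per the deposited file lists, a control entered the calls and the replicate and pooled lists include background. Neither aligner, peak caller nor sequencing depth is given in the sources used here. The signal of a region is the authors' own value (scale not stated), used only within a list, and the deposited −log10 q value is theirs as well. Pooled values have no SD or n. Lists on ce10 were not used.

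Summits were classified against Ensembl release 115 on WBcel235. Eligible sequence was all autosomal sequence in which a summit would have been counted. Lists were matched by the nearest summit within 200 bp, whatever its signal. Windows of 201 bp around summits were searched for 6 motifs, and masking was that of the RefSeq sequence. Tiled windows of 201 bp were eligible over their full length, a limit not set on windows around summits or 1000 bp away. Intervals are exact binomial at 95%. They cover counting error only, and regions of 1 gene share their source. No test across regions was made, so differences between classes are described and not tested. Genes named were the hosts of reproducible regions, of the 25 strongest regions, of 3 or more regions, up to 4 hosts of each of 20 gene lists, and unc-62, and further names were picked with their values known. The members, motifs and lists were chosen with earlier results of these data known. Alternatives varied the promoter window, exons, summit, matching rule, list depth and motif window. The steps were tested on simulated data. The tools were scipy 1.17.1, numpy 2.4.6, matplotlib 3.10.9 and Python 3.11.15.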

Additional observations from a re-analysis of the deposited data

How the results depend on the processing

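The share of autosomal regions that were intronic moved from 22.0% to 25.6% with a promoter window of 500 bp upstream to 100 bp downstream and to 16.3% with 2000 bp upstream to 500 bp downstream. The share of intronic regions among the first 1000 of both replicates, 3.04%, became 12.4% with the first 3000 of each list, and ran from 23.2 to 23.8% when a single replicate was required, that is, with either replicate left out. The GAGAGA share, 22.1%, was 12.4% within 50 bp of the summit, with 14.0% in the other autosomal regions and 6.91% in windows 1000 bp away, and 40.3% within 250 bp, with 40.2% and 33.1%. These shifts follow from the narrower or wider rule itself. The other 29 recomputed values stayed within the spread or interval of the reported ones, or within 1.5 times for the host genes, of which there were 350 with the narrower and 234 with the wider promoter window. They included 4 for regions whose 32-base words are all unique, an alternative chosen after seeing the data, which gave a reproducible share of 2.63% and a GAGAGA share of 21.9%. Sequencing depth is unknown from the files, and with 2 replicates in 1 group no comparison between conditions was possible. No paired analysis was possible because there was a single group.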
